A study of Mus musculus with 24 samples.

Results

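Mitochondria make only a handful of their own proteins, and the rest are brought in by dedicated machinery. The genes described here encode that machinery and the factors that build the respiratory complexes from imported and mitochondrially made subunits. They were taken by gene symbol, as every row of the deposited count table whose symbol begins with Timm, Tomm, Ndufaf, Chchd, Uqcc, Atpaf or Cox10 to Cox19, or is one of Coa3 to Coa7, Sco1, Sco2, Surf1, Samm50 or Slirp. The rule found 63 of 24079 genes and used no measured value. Of these, 61 had at least 15 reads in every comparison, whereas Tomm20l and Timm8a2, paralogs of import genes, had 3 and 4 reads over all 24 libraries and were not tested. Sequencing covered poly(A) RNA of wild-type (wt) mice and of rpS6 knockin mice (rpS6 P-/-), in which every phosphorylation site of ribosomal protein S6 is replaced by alanine in all cells. The regions were the dorsal striatum (DS) and, ventral to it, the nucleus accumbens (Acb). Each genotype was sampled in either region, both as whole lysate and as heavy polysomal fractions (mRNA carrying 4 or more ribosomes), with 3 libraries in each of the 8 groups. No group received a treatment, tissue of several mice was pooled per library, both sexes were used on a mixed C57Bl/6, Sv129 and ICR background, and the age of the mice is not given in the sources used here. The knockin is constitutive and whole tissue was lysed, so no value belongs to 1 cell type, and p-values measure the spread between pooled libraries.

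Most of these proteins act in a chain. The TOM complex of the outer membrane (Tomm40 is its pore, Tomm20, Tomm22 and Tomm70a its receptors, Tomm5, Tomm6 and Tomm7 its small subunits) takes precursors from the cytosol. The small TIM chaperones carry hydrophobic precursors across the intermembrane space to the TIM22 complex, while presequence proteins pass through TIM23. Assembly factors then insert haem, copper and subunits into complexes I, III, IV and V. Many CHCHD proteins are small intermembrane-space proteins with paired cysteines, and Slirp binds and stabilizes mitochondrial mRNA. Neurons of the striatum depend strongly on oxidative phosphorylation.

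By role, 11 genes belonged to outer-membrane import, 6 to TIM23, 8 to the small chaperones and TIM22, 8 to the CHCHD family, 8 to complex I assembly, 2 to complex III, 16 to complex IV and 2 to complex V. Slirp stood alone as the mitochondrial RNA-binding gene, and Tomm6os, a non-coding transcript on the strand opposite to Tomm6, was kept as the rule found it. The library preparation and the counting both used strand, which separates that pair in principle. Part of the sequence of Timm23 (90.9% of its 50-base words), Chchd2 (48.4%), Timm8a1 (41.0%) and Atpaf1 (34.8%) also occurs in transcripts of other genes, so reads of these 4 may be split or lost, and their levels are uncertain.

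Libraries held 9280589 to 34703044 reads assigned to genes, with a median of 19862908 in heavy fractions and 14889586.5 in lysates. Abundances below are CPM, a gene's share of a library's counts, scaled with TMM factors over all 24 libraries. Rps6 itself lay between group means of 317 and 441 CPM, and because the knockin replaces residues, its counts cannot check genotype. Of 10 markers of medium spiny neurons, the main striatal neuron, 9 were found and none was at 0, and they summed to 3487 to 4025 CPM in lysates and 4859 to 6604 CPM in heavy fractions. Markers of cortical excitatory neurons, 5 of 5 found with none at 0, summed to 395 to 512 CPM in wt Acb heavy libraries and 520 to 647 CPM in rpS6 P-/- ones, without overlap. Astrocyte markers, 6 of 6 found, summed to 1313 to 1968 and 1814 to 2050 CPM in the same libraries. The part of these markers in any genotype result below was not tested, and in bulk tissue fewer cells of a type and less RNA per cell cannot be told apart.

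These genes are short. Their median coding length was 514.5 bases, against 1377 bases over the 17365 genes with at least 15 reads, and 35 of them had a coding sequence under 600 bases, as did 12.7% of those genes. The shortest were Tomm5 (153 bases), Tomm7 (165), Cox14 (171), Cox17 (189), and Tomm6 and Coa5 (222 each), and the longest was Tomm70a (1833). Because heavy fractions select mRNAs by the number of ribosomes they carry, length is given beside the results.

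Their promoters were read from RefSeq (GRCm38.p6), which had an entry for 54 of them. The ETS motif CCGGAAG, searched on both strands in the 250 bases before and 50 bases after the annotated start, was found in 20 (37.0%), and in 16.3% of 13474 promoters in all. The NRF-1 core CGCATGCG was found in 3 (5.56%, against 3.56% of all) and the YY1 motif AAGATGGC in 5 (9.26%, against 4.37%). A start with a C followed by 4 pyrimidines, the pattern of mRNAs with a terminal oligopyrimidine tract, was found for Sco2 and Surf1 (3.70%, against 2.97%). ETS factors, NRF-1 and YY1 are known regulators of nuclear genes for mitochondrial proteins. A match is a description of letters only, and the search itself was set up with earlier results known. Windows of 100 bases, from 70 before to 30 after the start, follow for genes on which the results below turn and for Surf1, with motif letters in capitals. Slirp lies on the plus strand at chr12:87443826-87443925, Timm8b on the plus strand at chr9:50603831-50603930, Timm10 on the plus strand at chr2:84826951-84827050, Uqcc2 on the minus strand at chr17:27133862-27133961, Cox15 on the minus strand at chr19:43752971-43753070 and Surf1 on the minus strand at chr2:26916501-26916600.
Slirp: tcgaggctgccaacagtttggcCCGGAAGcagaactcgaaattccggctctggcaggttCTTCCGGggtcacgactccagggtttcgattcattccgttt
Timm8b: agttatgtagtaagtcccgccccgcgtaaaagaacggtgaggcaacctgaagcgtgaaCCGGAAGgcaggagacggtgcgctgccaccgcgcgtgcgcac
Timm10: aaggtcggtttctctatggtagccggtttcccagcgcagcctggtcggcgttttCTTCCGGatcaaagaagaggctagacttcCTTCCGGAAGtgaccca
Uqcc2: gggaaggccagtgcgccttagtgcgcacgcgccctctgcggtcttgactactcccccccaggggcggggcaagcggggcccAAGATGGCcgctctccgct
Cox15: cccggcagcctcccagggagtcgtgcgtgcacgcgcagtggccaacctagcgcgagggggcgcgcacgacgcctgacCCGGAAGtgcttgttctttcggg
Surf1: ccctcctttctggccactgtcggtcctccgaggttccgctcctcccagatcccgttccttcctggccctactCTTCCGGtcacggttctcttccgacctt
Capitals in these windows mark the ETS motif on either strand, except in Uqcc2, where they mark the YY1 motif. In Timm10 the motif on one strand overlaps the motif on the other, and the YY1 match of Slirp lies outside its window. Whether the letters go with any difference below was not tested.

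In wt Acb lysates, levels per kilobase of the annotated transcript differed widely. Uqcc2, an assembly factor of complex III, had the highest level (185 CPM per kb), followed by Timm8b, a small TIM chaperone (169), Tomm6 (151), Chchd2, a CHCHD protein that moves between mitochondria and nucleus (130), Tomm20 (117) and Tomm7 (86.9). At the other end, Sco2, a copper chaperone of complex IV, stood at 1.71 and Ndufaf6, a complex I assembly factor, at 3.17 CPM per kb. Levels per kilobase rest on 1 annotated transcript per gene, and where the transcript in use is shorter, as it may be for Slirp (annotated at 2701 bases), they are too low. The heat map of all libraries shows how each gene varied around its own mean.

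**Figure D1:**
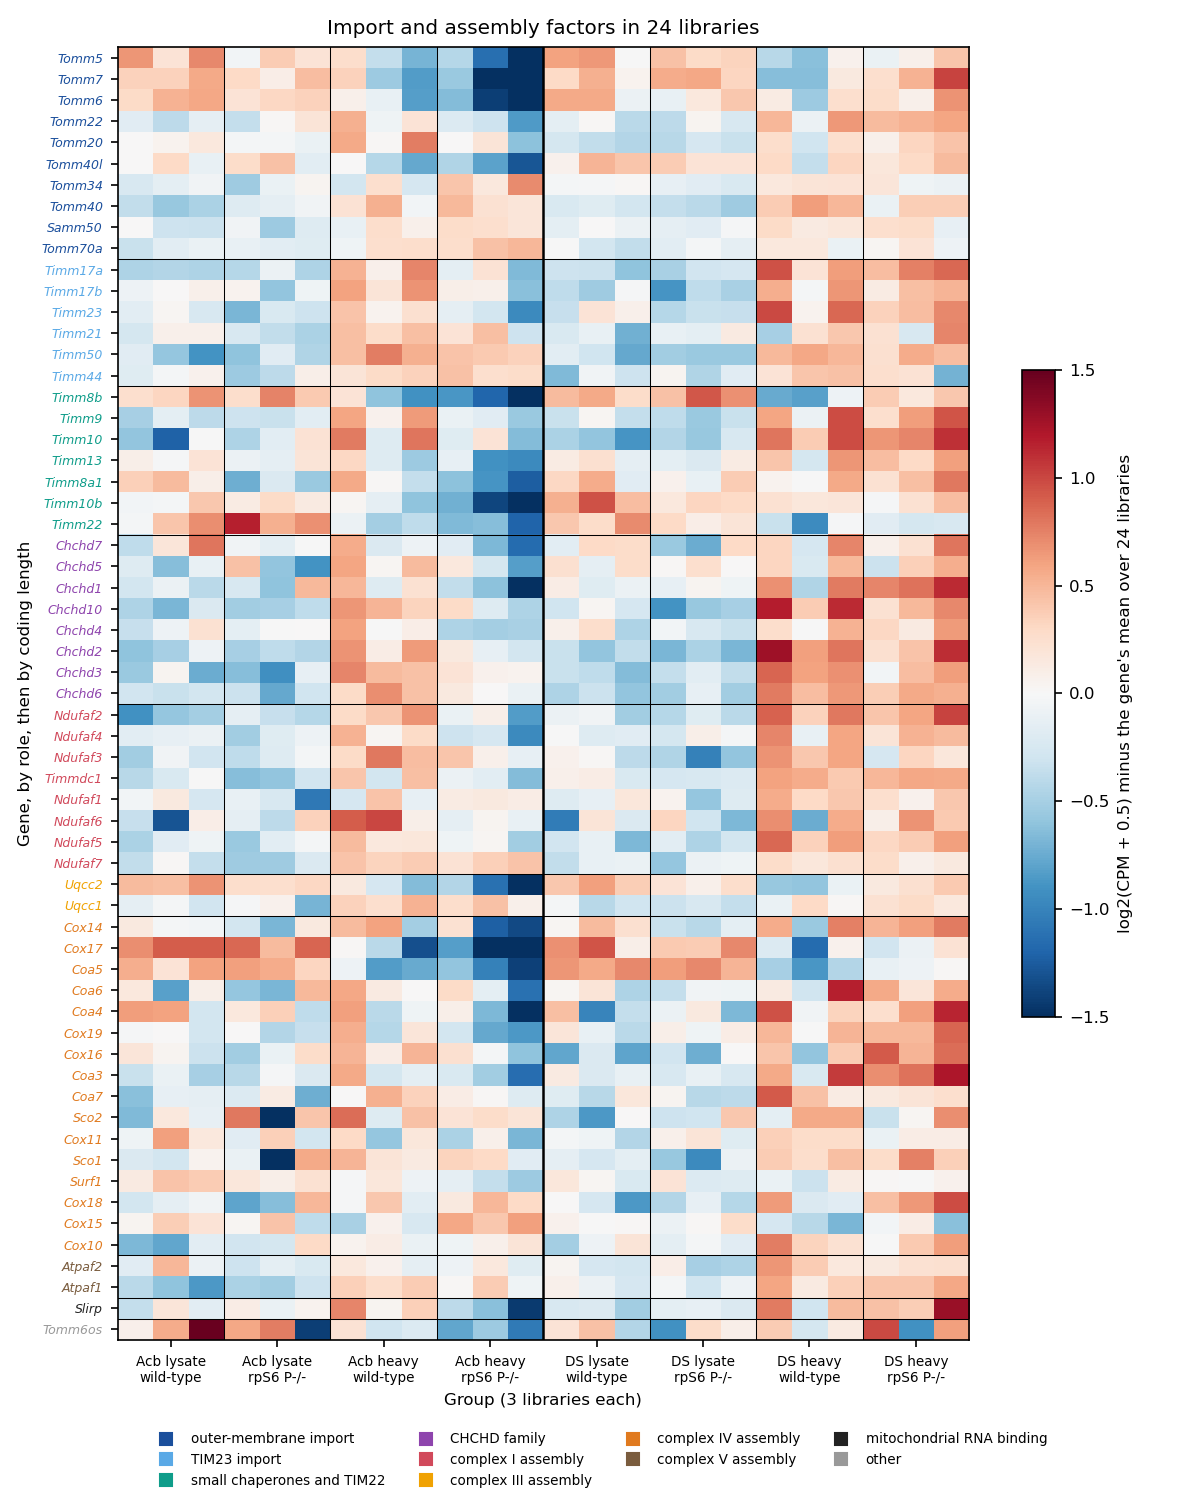
Each row is 1 of the 61 tested genes, coloured by role and ordered by coding length within a role, and each column is 1 of 24 libraries. Colour gives log2(CPM + 0.5) minus the gene's mean over the libraries, cut at 1.5 in both directions. Tomm5, Tomm6, Tomm7, Timm8b and Cox17 are among the darkest blue in the rpS6 P-/- heavy libraries 2 and 3 of the Acb.

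The first comparison asked which of these mRNAs were found more in heavy polysomes than in whole lysate. In wt Acb 15 were higher and 8 lower in heavy fractions (edgeR, adjusted p under 0.05), beside 11.5% of all tested genes higher and 11.6% lower. Higher genes came from most roles and included 4 of 8 CHCHD genes, 4 of 8 complex I assembly factors and 2 of 6 TIM23 genes. Lower genes were all under 600 bases of coding sequence and formed a compact group, namely Tomm5, Tomm6 and Tomm7 of TOM, Timm8b and Timm22 of the TIM22 route, the copper chaperone Cox17, Coa5 and Uqcc2. Not every short mRNA lay in it: Timm9 and Timm10, which form a chaperone complex, were higher in heavy fractions by 0.76 and 1.03 on the log2 scale. Short mRNAs at large were more often higher than lower. Of all 1940 genes under 600 bases, 612 were higher and 121 lower, beside 7 and 8 of the 33 in this set.

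Ndufaf2, which assists complex I assembly, had 14.5, 18.4 and 19.3 CPM in the wt Acb lysates and 33.9, 36.8 and 44.5 CPM in the heavy fractions. The groups did not overlap, and the log2 difference was 1.10 ± 0.23 (SE; edgeR adjusted p = 0.000383). Timm50, the TIM23 receptor, had 14.8, 11 and 8.78 CPM in lysates and 23.1, 28.8 and 24.5 CPM in heavy fractions, a log2 difference of 1.08 ± 0.25 (edgeR adjusted p = 0.00105). For Chchd10, a protein of the cristae junctions, lysates held 104, 88.1 and 122 CPM and heavy fractions 225, 203 and 179 CPM, a log2 difference of 0.90 ± 0.17 (edgeR adjusted p = 7.37e-05). For all 3 genes every heavy library thus lay above every lysate. In the other direction, Cox17, which hands copper to complex IV factors, had 80.2, 93.1 and 92.4 CPM in lysates and 49.9, 37.1 and 19.4 CPM in heavy fractions, a log2 difference of -1.37 ± 0.24 (edgeR adjusted p = 4.96e-05). Coa5, a complex IV assembly factor, fell from 137, 108 and 142 CPM to 88.6, 52.3 and 55.3 CPM, a log2 difference of -1.03 ± 0.19 (edgeR adjusted p = 6.7e-05). Timm8b had 77.3, 81.2 and 104 CPM in lysates and 75.2, 42.5 and 34.4 CPM in heavy fractions, a log2 difference of -0.83 ± 0.22 (edgeR adjusted p = 0.0046). Its heavy library 1 nearly reached the lysates and library 3 was lowest, and without the libraries numbered 3 its difference was -0.47 (edgeR adjusted p = 0.23), and without those numbered 1 it was -1.32. Without the libraries numbered 3 the count of called genes was 15 in place of 23.

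In wt DS 24 of these genes were higher and 7 lower in heavy fractions (edgeR, adjusted p under 0.05), beside 12.8% and 12% of all genes tested. Of all 1906 genes under 600 coding bases, 736 were higher and 89 lower, beside 14 and 7 of the 33 in this set. The 7 lower ones, Coa5, Cox17, Timm8b, Uqcc2, Timm22, Tomm5 and Tomm7, were all among the lower ones of the Acb too. Timm10 was highest relative to lysate, with 24.9, 22.8 and 18.5 CPM in lysates and 61.0, 45.1 and 68.9 CPM in heavy fractions (log2 difference 1.40 ± 0.20, edgeR adjusted p = 1.3e-07). Chchd2 went from 115 ± 11.1 to 292 ± 70.9 CPM (SD, n = 3), and Chchd3, a scaffold of the cristae-organizing MICOS complex, from 41.3 ± 4.83 to 94.0 ± 9.26 CPM (SD, n = 3). Their log2 differences were 1.35 and 1.18, and their groups did not overlap. Coa5 differed by -1.24, Cox17 by -0.97 and Timm8b by -0.95 on the log2 scale in the same libraries. Cox17 rested in part on library 2, without which its difference was -0.49 (edgeR adjusted p = 0.0876). The count of called genes fell from 31 to 17 without the libraries numbered 1 and to 20 without those numbered 3.

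In rpS6 P-/- Acb the balance differed: 8 genes were higher and 14 lower in heavy fractions (edgeR, adjusted p under 0.05), beside 9.5% and 9.74% of all genes. Of all 1940 genes under 600 coding bases, 241 were higher and 338 lower, beside 0 and 12 of the 33 in this set. The lower group held all 8 genes that were lower in wt Acb, and in addition Timm10b, Timm13, Tomm40l, Slirp, Chchd1 and Surf1. Cox17 had 89.9, 68.4 and 90.6 CPM in lysates and 27.5, 13 and 11.4 CPM in heavy fractions, a log2 difference of -2.29 ± 0.26 (edgeR adjusted p = 1.3e-08). Timm8b, from 91.0 ± 16.2 to 26.7 ± 9.21 CPM, and Timm22, the channel of the TIM22 complex, from 116 ± 27.6 to 37.0 ± 7.74 CPM (SD, n = 3), differed by -1.78 and -1.66. Timm50, Ndufaf7 (a complex I assembly methyltransferase) and Chchd3 were higher in heavy fractions by 0.80, 0.76 and 0.62. The calls of Timm50 and Chchd3 did not hold without libraries 1 (edgeR adjusted p = 0.135 and 0.16), nor that of Timm50 without libraries 3 (0.0656) or that of Chchd3 without libraries 2 (0.223). The median difference over the 61 genes was -0.03 and moved to 0.21 without libraries 3 and to -0.22 without libraries 2.

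In rpS6 P-/- DS 30 genes were higher and 2 lower (edgeR, adjusted p under 0.05), beside 13.4% and 12.1% of all genes. Of all 1906 genes under 600 coding bases, 848 were higher and 30 lower, beside 19 and 2 of the 33 in this set. The 2 lower genes were Coa5, which went from 145 ± 10.7 to 90.1 ± 4.20 CPM, and Cox17, from 70.1 ± 9.60 to 47.8 ± 8.78 CPM (SD, n = 3), with log2 differences of -0.69 and -0.55. The Cox17 call (edgeR adjusted p = 0.0407) did not hold when the libraries of any 1 number were left out (adjusted p 0.0923 to 0.181) or by DESeq2 (0.0614). Timm10 (1.27), Chchd2 (1.26) and Chchd10 (1.14) were the highest relative to lysate. Tomm7 and Uqcc2, lower in heavy fractions of the 3 other sets, stood at log2 differences of 0.14 and 0.08 here and were not called. Median log2 differences over the 61 genes were 0.36 in wt Acb (0.22 without the libraries numbered 1), 0.48 in wt DS and 0.59 in rpS6 P-/- DS. All genes tested had medians of 0.04, 0.00 and 0.06 in these sets. Under 600 coding bases, medians were 0.35, 0.45 and 0.62 for the import and assembly genes and 0.50, 0.58 and 0.66 over all genes. At 600 bases or more they were 0.40, 0.53 and 0.48, against 0.00, -0.04 and -0.02 over all genes. With each library's trend on transcript length removed, the medians of the 61 were 0.08, 0.31 and 0.31.

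**Figure D2:**
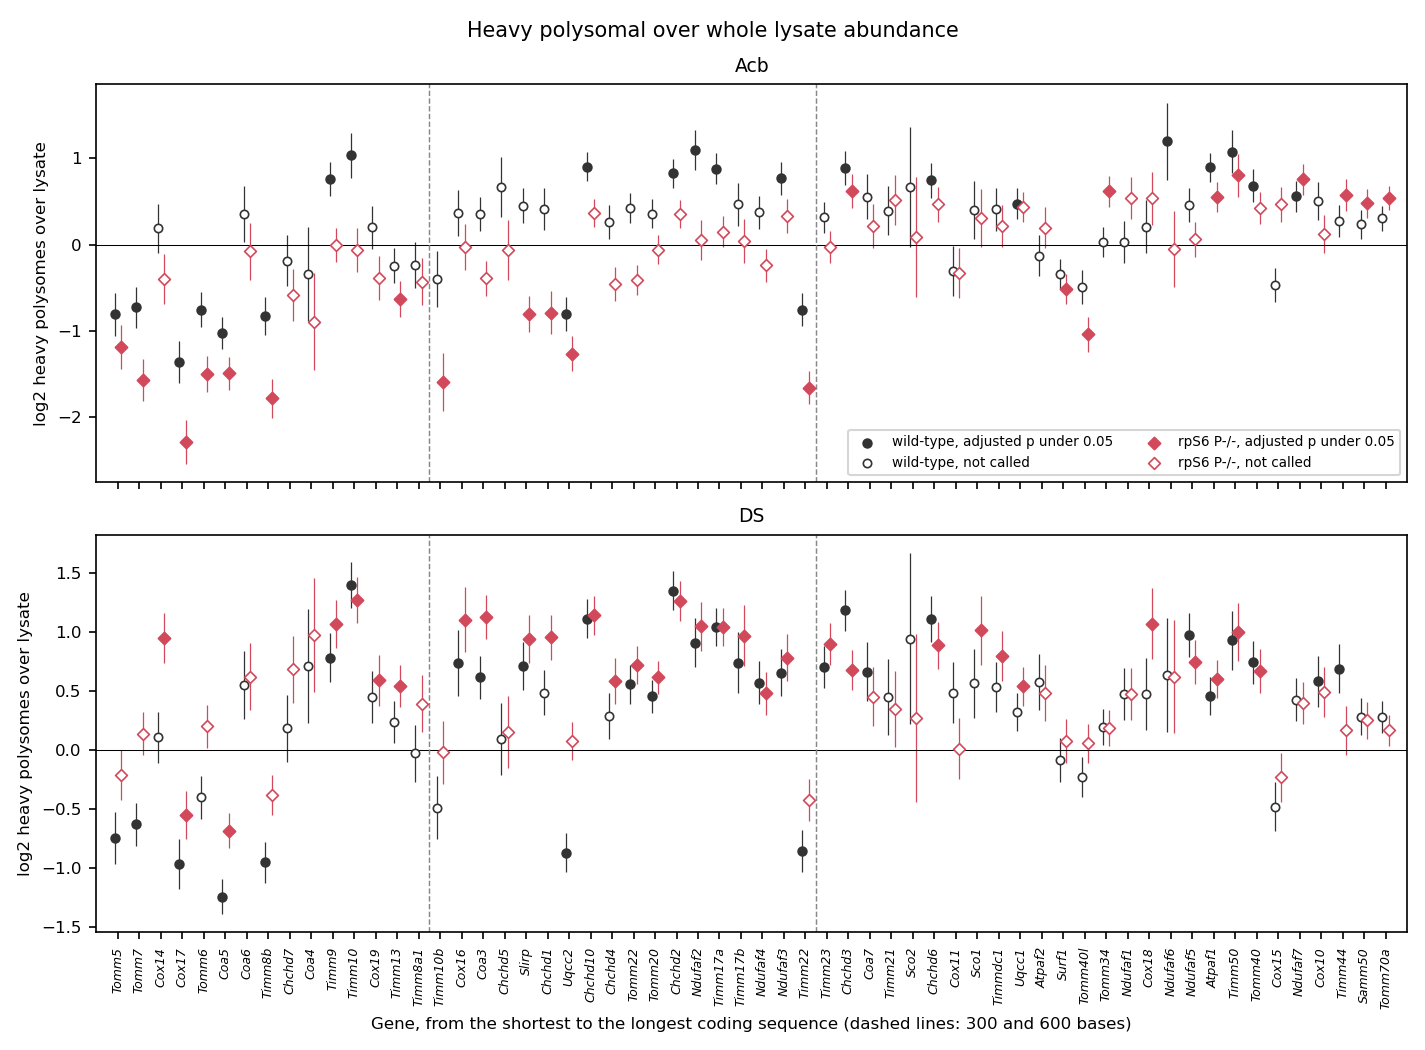
Points give the log2 difference between heavy polysomes and lysate for each coding gene, with bars of 1 SE, for wt (circles) and rpS6 P-/- (diamonds) in Acb (top) and DS (bottom), filled where the adjusted p was under 0.05. Genes run from the shortest to the longest coding sequence. In the Acb the diamonds left of the 600-base line lie mostly below the circles, while in the DS most genes under 300 bases have diamonds above circles.

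Genotype was then compared within the heavy fractions of the Acb, to ask which of these mRNAs depended on rpS6 phosphorylation in polysomes. None of the 61 genes passed the cutoff (edgeR, adjusted p under 0.05; lowest 0.0983), and neither did any of the 16227 genes tested (0.0%). At an unadjusted p under 0.05, 33 were lower and 2 higher in rpS6 P-/-, beside 11.5% of all genes lower and 10.2% higher. In all, 52 of the 61 had a lower mean estimate, with a median log2 difference of -0.49 against -0.01 over all genes. In 20 genes every rpS6 P-/- library lay below every wt library, and in 1, Cox15, every one lay above, beside 13.7% and 11.3% of all genes. By the DESeq2 Wald test, 14 were lower and 2 higher at an adjusted p under 0.05, beside 6.84% and 7.25% of the genes to which it gave an adjusted p. The count of 33 fell to 17 without wt library 1 and to 19 without rpS6 P-/- library 3.

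Slirp had 88.0, 54.5 and 67.6 CPM in the wt Acb heavy libraries and 40.1, 34.1 and 19.3 CPM in the rpS6 P-/- ones. The groups did not overlap, the rpS6 P-/- mean was 45.5% of wt, and the log2 difference was -1.14 ± 0.24 (edgeR adjusted p = 0.0983, DESeq2 adjusted p = 0.00284). In lysates it had 41.0, 60.2 and 47.4 CPM in wt and 57.2, 49.4 and 54.7 CPM in rpS6 P-/-, a log2 difference of 0.11. Timm8a1, the small chaperone whose human counterpart is mutated in deafness-dystonia syndrome, had 27.1, 18.2 and 13.9 CPM in wt and 11.6, 9.5 and 7.37 CPM in rpS6 P-/- heavy libraries, again without overlap (log2 difference -1.03 ± 0.26, edgeR adjusted p = 0.0987). Unlike Slirp, Timm8a1 also had a lower estimate in rpS6 P-/- lysates, which was not called, as given below. By qRT-PCR of total Acb lysates the study found no change in Timm8a1. Tomm7, which modulates the stability of TOM, had 92.4, 49.7 and 40.6 CPM in wt and 49.4, 24.2 and 18.3 CPM in rpS6 P-/-. Here the groups overlapped, since rpS6 P-/- library 1 reached the lower wt libraries (log2 difference -0.97 ± 0.32, edgeR adjusted p = 0.129, DESeq2 adjusted p = 0.192). Timm8b showed the same arrangement, with 75.2, 42.5 and 34.4 CPM in wt and 35.2, 28.1 and 16.9 CPM in rpS6 P-/- (log2 difference -0.90 ± 0.28, edgeR adjusted p = 0.117, DESeq2 adjusted p = 0.0268). Without wt library 1 the difference was -0.52 for Tomm7 and -0.48 for Timm8b, and without rpS6 P-/- library 1 that of Tomm7 was -1.49. The study named Slirp and Timm8a1 from these Acb libraries and Tomm7 and Timm8b from the heavy fractions of the DS, so the differences of each in that region are not independent evidence.

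Cox15, which makes the haem a of complex IV, went the other way. It had 24, 35.3 and 28.5 CPM in wt and 50.5, 44.8 and 51.9 CPM in rpS6 P-/- Acb heavy libraries, 172.5% of wt without overlap (log2 difference 0.79 ± 0.18, edgeR adjusted p = 0.0983, DESeq2 adjusted p = 0.00544). Tomm34, a cytosolic co-chaperone of import, was the other higher gene, with 68.7, 99.4 and 70.2 CPM in wt and 112, 93.2 and 136 CPM in rpS6 P-/- (log2 difference 0.56 ± 0.19, edgeR adjusted p = 0.132). Both have coding sequences over 600 bases (1239 for Cox15 and 927 for Tomm34).

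By role, all 8 CHCHD genes were lower at an unadjusted p under 0.05, with a median log2 difference of -0.60. Chchd1, a subunit of the mitochondrial ribosome, differed most (-0.99), and Chchd4, the oxidase of the intermembrane-space import route, by -0.72. Of the small chaperones and TIM22, 6 of 7 were lower (median -0.69), with Timm10b at -1.14 and Timm13 at -0.49 as the one that did not pass. The outer-membrane import genes were divided: 5 of 10 were lower, namely Tomm6 (-0.92), Tomm7, Tomm5 (-0.74), Tomm22 (-0.65) and Tomm20 (-0.55). By contrast, the pore gene Tomm40 stood at 0.08, the receptor Tomm70a at 0.28 and Samm50, which inserts outer-membrane barrels, at 0.19. Of TIM23, the channel genes Timm23 (-0.63), Timm17a (-0.59) and Timm17b (-0.61) were lower, while Timm44, Timm50 and Timm21, which make the motor and receptor side, lay between -0.22 and 0.09. For complex I assembly 5 of 8 were lower, among them Ndufaf4 (-0.74) and Ndufaf6 (-0.82), for complex III 1 of 2 (Uqcc2, -0.72), for complex IV 4 of 16 (Cox17 -1.01, Cox14 -0.85, Cox19 -0.76 and Coa3 -0.66) and for complex V 0 of 2, with Atpaf1 at -0.17 and Atpaf2 at -0.03.

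The roles divided along length. All 33 tested genes with a coding sequence under 600 bases had a lower estimate in rpS6 P-/- Acb heavy fractions, as did 1722 of all 1883 genes of that length. At an unadjusted p under 0.05, 27 of the 33 were lower, beside 934 of the 1883. Of the 27 genes of 600 bases or more, 6 were lower by that measure, beside 810 of 13270 genes. Medians were -0.76 for the 15 genes under 300 bases, -0.65 for the 18 from 300 up to 600 bases and -0.17 for the 27 of 600 bases or more, and those over all genes of these lengths were -0.74, -0.49 and 0.07. Across the 60 genes with a coding length, which share the same 6 libraries, the log2 difference followed length with a Spearman rho of 0.82, against 0.41 over 15153 genes of any kind. With each library's trend on transcript length removed, the median of the 61 was -0.24 and 19 were lower at an unadjusted p under 0.05. The share over all genes was not counted for this setting. Transcript length is another measure than coding length. Cox17 has 189 coding bases in an annotated transcript of 3690, and Slirp 336 in 2701. A difference left after this removal is therefore not a difference beyond coding length, for which no adjustment was made.

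**Figure D3:**
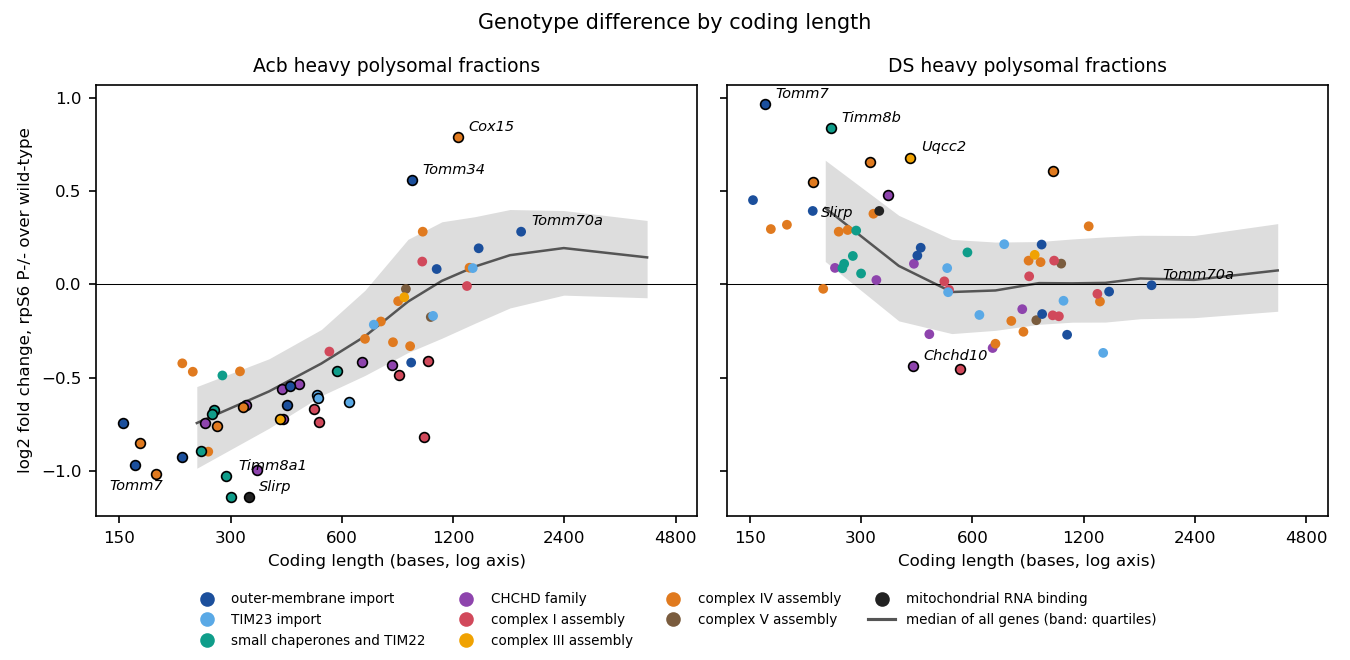
Each point is 1 gene, placed by its coding length (log axis) and its log2 difference between rpS6 P-/- and wt heavy fractions, in the Acb (left) and the DS (right), coloured by role and outlined where the unadjusted p was under 0.05. The line and band give the median and quartiles of all genes along length. In the Acb the points climb with length from -1.14 (Slirp and Timm10b) to 0.79 (Cox15), as the line does, and in the DS Tomm7 and Timm8b, among the shortest, lie highest.

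Spread between libraries followed length as well. For the 15 genes under 300 bases, the median deviation from each gene's mean was 0.47, -0.22 and -0.52 in the wt Acb heavy libraries 1 to 3 and -0.27, -0.91 and -1.35 in the rpS6 P-/- ones. The wt and rpS6 P-/- values overlapped, since rpS6 P-/- library 1 stood above wt library 3. For the 27 genes of 600 bases or more the same 6 values lay between 0.05 and 0.29. In lysates of both regions the short genes lay between -0.14 and 0.47. The part of this spread in the genotype difference was not tested, and fragment length or RNA quality is not analysed here.

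**Figure D4:**
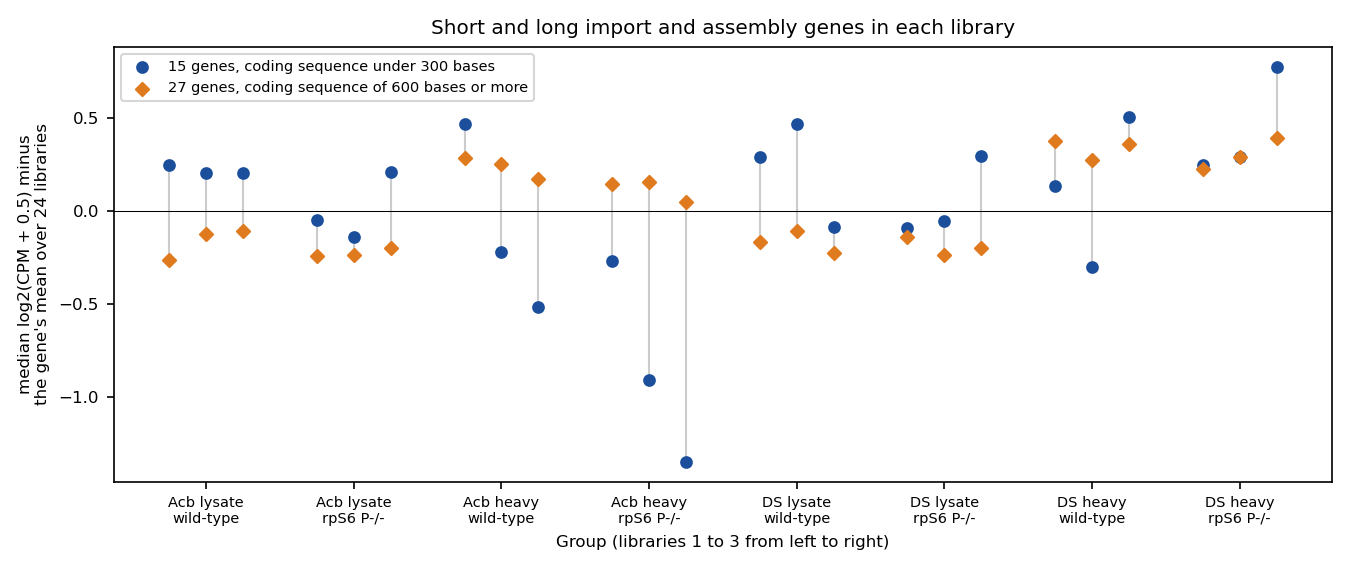
For each of the 24 libraries, circles give the median of log2(CPM + 0.5) minus the gene's mean for 15 genes under 300 coding bases, and diamonds that for 27 genes of 600 bases or more. Circles spread from -1.35 to 0.78 over the heavy libraries, and diamonds from 0.05 to 0.40.

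In Acb lysates genotype had little measurable effect on these genes. None was called (edgeR, adjusted p under 0.05), beside 0.0065% of all genes, and 2 had an unadjusted p under 0.05, beside 2.96% of all genes. DESeq2 called none either. Timm8a1 had 23.2, 25.2 and 19.1 CPM in wt and 10.6, 15.4 and 12.1 CPM in rpS6 P-/- lysates, without overlap (log2 difference -0.84 ± 0.28, edgeR adjusted p = 1.0). Timm22 had 64.0, 87.4 and 106 CPM in wt and 147, 94.9 and 105 CPM in rpS6 P-/-, with overlap (0.43 ± 0.16, edgeR adjusted p = 1.0). Without rpS6 P-/- library 1 its difference was 0.22 and without wt library 1 it was 0.26. For Uqcc2, the next in order of p, wt lysates held 88.8, 86.8 and 102 CPM and rpS6 P-/- lysates 76.5, 75.6 and 78.8 CPM (-0.27 ± 0.15, edgeR adjusted p = 1.0). The median over the 61 genes was -0.05, -0.13 without rpS6 P-/- library 3 and 0.00 without wt library 3.

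Translational efficiency, the genotype difference in heavy fractions beyond that in lysates, was then tested as an interaction over the 12 Acb libraries. None of the genes was called (edgeR, adjusted p under 0.05, 0.0% of all genes), nor was any by DESeq2. At an unadjusted p under 0.05, 18 were lower and 2 higher, beside 6.16% and 5.78% of all genes. The 18 were all among the 33 genes under 600 coding bases, beside 554 of all 1940 genes of that length. Of genes of 600 bases or more, 0 of the 27 in this set and 401 of all 13530 were lower. Among genes of this set with an unadjusted p under 0.05, estimates were lowest for Slirp (-1.26 ± 0.29), Chchd1 (-1.21 ± 0.35), Timm10b (-1.20 ± 0.47) and Timm10 (-1.10 ± 0.37). Ndufaf6, of low abundance and with a long coding sequence, had an estimate of -1.25 ± 0.63 (edgeR adjusted p = 0.427). Chchd1 had 40.6, 46.2 and 37.3 CPM in wt and 41.8, 32.3 and 69.6 CPM in rpS6 P-/- lysates, beside 70.1, 43.1 and 57.9 CPM and 38.3, 32.0 and 13.9 CPM in the heavy fractions. Without the rpS6 P-/- libraries numbered 3 the estimate of Chchd1 was -0.53. Timm22 had an estimate of -0.90 ± 0.27 (-0.60 without the wt libraries numbered 1), with a positive genotype difference in lysates and a negative one in heavy fractions. Timm8a1, whose difference was negative in both, had an estimate of -0.19 ± 0.38. Tomm7 and Timm8b stood at -0.85 ± 0.34 and -0.96 ± 0.31, with edgeR adjusted p of 0.325 and 0.258. Without the wt libraries numbered 1 they stood at -0.38 and -0.48, and Tomm7 stood at -1.34 and -0.51 without the rpS6 P-/- libraries numbered 1 or 3. The count of 18 was 7 without the wt libraries numbered 1 and 8 without the rpS6 P-/- libraries numbered 3, and without the rpS6 P-/- libraries numbered 1 a single gene passed the adjusted cutoff.

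The DS gave a different picture. In its heavy fractions none of the 61 genes was called (edgeR, adjusted p under 0.05; lowest 0.069), beside 0.044% of all genes. At an unadjusted p under 0.05, 7 were higher and 2 lower in rpS6 P-/-, beside 3.7% and 2.72% of all genes. In 5 genes the rpS6 P-/- libraries all lay above wt and in 3 below, beside 5.71% and 5.39% of all genes. Without wt library 2 or wt library 3, 1 and 2 genes were called. The median over the 61 was 0.11, -0.05 without wt library 2, 0.00 without rpS6 P-/- library 3, 0.20 without wt library 3, and -0.01 with the length trend removed.

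Tomm7 led, with 46.7, 46.5 and 80.7 CPM in wt and 86.5, 105 and 147 CPM in rpS6 P-/- DS heavy libraries, 195% of wt without overlap (log2 difference 0.96 ± 0.21, edgeR adjusted p = 0.069). It was the one gene of the set called by DESeq2 (adjusted p = 0.0387), beside 0.21% of the genes to which that test gave an adjusted p. Timm8b had 38.4, 36.8 and 61.6 CPM in wt and 84.6, 72.4 and 86.3 CPM in rpS6 P-/- (0.84 ± 0.20, edgeR adjusted p = 0.146). Uqcc2 had 42.7, 42.1 and 59.1 CPM in wt and 70.4, 75.1 and 83.3 CPM in rpS6 P-/- (0.68 ± 0.19, edgeR adjusted p = 0.338). These 3 genes, low in the rpS6 P-/- heavy fractions of the Acb, were thus higher than wt in those of the DS, without overlap in the latter. Slirp, by contrast, had 91.2, 42.9 and 73.7 CPM in wt and 71.8, 68.6 and 130 CPM in rpS6 P-/- DS heavy libraries, which overlapped (0.39 ± 0.23, edgeR adjusted p = 0.806), as did Timm8a1 (21.3 ± 5.07 and 25.8 ± 5.30 CPM; SD, n = 3). The Slirp difference was 0.04 without rpS6 P-/- library 3, 0.14 without wt library 2 and 0.64 without wt library 1. Cox16 (0.66), Cox18, the insertase that places Cox2 in the membrane (0.60), Coa5 (0.55) and Chchd1 (0.48) were the other higher genes, and Chchd10 (-0.44) and Ndufaf3 (-0.46) the lower ones. Medians were 0.29 for the 15 genes under 300 bases, against 0.41 over all genes of that length, and -0.09 for the 27 of 600 bases or more.

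**Figure D5:**
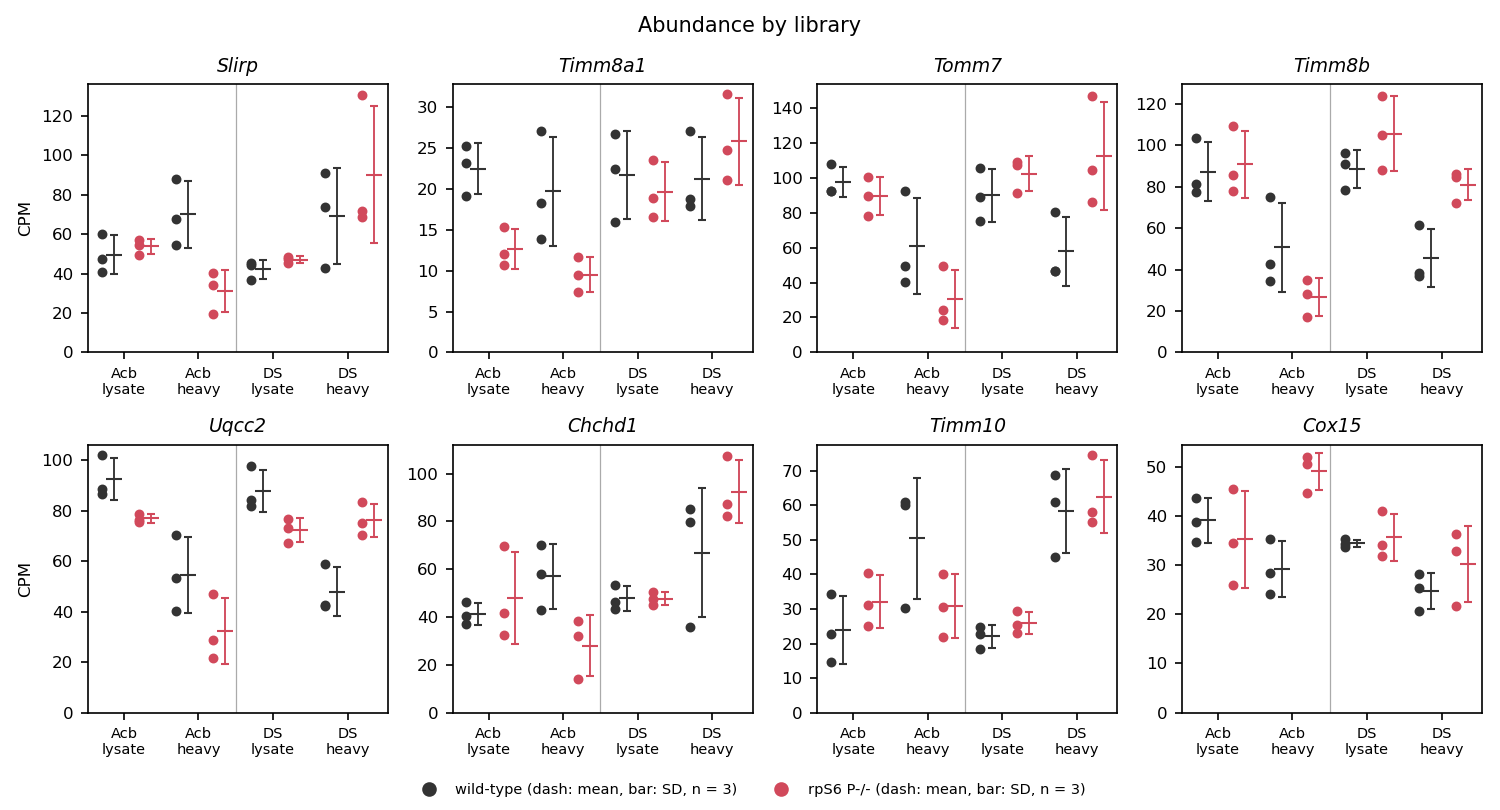
CPM in each of the 24 libraries for 8 genes, with the mean (dash) and SD (bar, n = 3) beside the points of each group, wt in black and rpS6 P-/- in red. In Acb heavy fractions the red points of Slirp, Timm8a1 and Chchd1 lie below and those of Cox15 above all black ones, and in DS heavy fractions those of Tomm7, Timm8b and Uqcc2 lie above all black ones.

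In DS lysates none of the genes passed (edgeR, adjusted p under 0.05), beside 0.122% of all genes. At an unadjusted p under 0.05, 0 were higher and 6 lower in rpS6 P-/-, beside 4.83% of all genes lower. In these lysates astrocyte markers summed to 1281 to 1335 CPM in wt and 1410 to 1677 CPM in rpS6 P-/-, and choroid plexus markers, 5 of 5 found with none at 0, to 103 to 122 and 131 to 144 CPM, both without overlap. Their part in the differences that follow was not tested. Chchd10 had 115, 145 and 119 CPM in wt and 76.1, 96.2 and 101 CPM in rpS6 P-/- lysates, without overlap (log2 difference -0.49 ± 0.13, edgeR adjusted p = 0.0939, DESeq2 adjusted p = 0.0392). Cox14, which couples Cox1 synthesis to assembly, had 33.6, 45.8 and 39.0 CPM in wt and 26.1, 24.6 and 29.6 CPM in rpS6 P-/- (-0.58 ± 0.18, edgeR adjusted p = 0.23). Ndufaf3, a complex I assembly factor, had 38.6, 37.4 and 28.1 CPM in wt and 26.8, 18.0 and 24.3 CPM in rpS6 P-/- (-0.61 ± 0.20, edgeR adjusted p = 0.245). Timm23, Uqcc2 and Timm22 were the 3 others. In translational efficiency, no gene of the set was called in the DS (edgeR, 0.0% of all genes) and none by DESeq2. At an unadjusted p under 0.05, 6 were higher and 1 lower, beside 2.73% and 2.18% of all genes. The 6 were all among the 33 genes under 600 coding bases, beside 160 of all 1906 genes of that length. Uqcc2 (0.95 ± 0.23), Cox14 (0.84 ± 0.30) and Tomm7 (0.77 ± 0.26) had the smallest p, with edgeR adjusted p of 0.514, 0.934 and 0.934. Without the wt libraries numbered 2, Cox14 stood at 0.41 and Tomm7 at 0.50. Tomm7 stood at 0.46 without the rpS6 P-/- libraries numbered 3 and at 1.2 without the wt libraries numbered 3. Without the wt libraries numbered 3, 2 genes passed the adjusted cutoff.

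Whether the genotype difference itself differed between regions was tested as an interaction over the 12 heavy libraries. None of the 61 genes was called (edgeR, adjusted p under 0.05; lowest 0.0535), beside 0.00592% of all genes. At an unadjusted p under 0.05 the difference was lower in the Acb than in the DS for 24 and higher for 1, Tomm34 (0.73 ± 0.25), beside 7.49% and 6.33% of all genes. Timm8b (-1.72 ± 0.37, edgeR adjusted p = 0.0535), Tomm7 (-1.92 ± 0.43, 0.0621) and Uqcc2 (-1.39 ± 0.33, 0.0705) had the smallest p. Slirp stood at -1.52 ± 0.38 (edgeR adjusted p = 0.0904), Chchd1 at -1.45 ± 0.40 (0.12) and Timm8a1 at -1.30 ± 0.37 (0.125). DESeq2 called 5, all lower (Timm8b, Uqcc2, Slirp, Tomm6 and Timm8a1), beside 2.0% of the genes to which it gave an adjusted p. The 24 genes were all among the 33 with coding sequences under 600 bases. Of all 1966 genes of that length, 583 were lower by the same measure. Under 300 bases, medians were -1.13 for this set and -1.11 over all genes. The 24 included 6 of 7 small chaperones and TIM22, 5 of 10 outer-membrane import genes and 6 of 16 complex IV factors. The edgeR count of 0 became 10 without rpS6 P-/- Acb library 1, 4 without wt Acb library 3, 3 without wt DS library 3 and 2 without wt Acb library 2. Since the interaction is built from both heavy-fraction comparisons, it shares all their libraries.

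Between regions of wt mice 2 of these genes were called in lysates and 0 in heavy fractions. In the lysates cortical excitatory neuron markers summed to 439 to 559 CPM in the Acb and 1293 to 1475 CPM in the DS, and astrocyte markers to 1806 to 2306 and 1281 to 1335 CPM. In the heavy fractions the same sums were 395 to 512 and 1291 to 1444 CPM, and 1313 to 1968 and 796 to 1090 CPM. Neither list overlapped between regions. Microglia, choroid plexus and oligodendrocyte markers were also higher in the Acb in both kinds of RNA, without overlap. Microglia markers, for example, summed to 183 to 214 CPM in Acb lysates and 96.9 to 122 CPM in DS lysates. Sums of medium spiny neuron and endothelial markers overlapped. The part of any of these markers in the differences was not tested. In lysates Tomm20 was higher in the Acb, with 545, 562 and 607 CPM against 451, 419 and 400 CPM in the DS (log2 difference 0.46 ± 0.10, edgeR adjusted p = 0.000416). Atpaf1, a chaperone of the ATP synthase beta subunit, was lower, with 49.2, 42.7 and 35.7 CPM against 68.5, 61.3 and 54.7 CPM (-0.50 ± 0.16, edgeR adjusted p = 0.0332). These were the only calls, 1 in each direction, beside 6.16% of all genes higher and 5.95% lower, and the Atpaf1 call did not hold without DS library 1 or 2 or Acb library 2 or 3 (edgeR adjusted p = 0.165, 0.0771, 0.0874 and 0.193). In heavy fractions none was called (edgeR; lowest adjusted p 0.161) and none by DESeq2, beside 4.79% of all genes higher and 4.14% lower, and 5 had an unadjusted p under 0.05, all lower in the Acb. Of these, Cox10, which makes haem o, had 29.9, 31.1 and 26.8 CPM in the Acb and 49.6, 36.5 and 34.0 CPM in the DS (-0.47 ± 0.20, edgeR adjusted p = 0.161). Tomm40l, a paralog of Tomm40, stood at -0.50 ± 0.22 (0.174) and Chchd10 at -0.45 ± 0.20 (0.188). Without DS library 1, Cox10 stood at -0.26 and Chchd10 at -0.28, and without Acb library 3 Tomm40l stood at -0.31. Without DS library 2, 2 genes were called.

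Other genes of the pathway were taken from a fixed list of 43 (the import motor, processing proteases, metaxins, chaperonins and further assembly factors), of which 41 were in the table and 40 were tested. In Acb heavy fractions 0 were called by edgeR (0.0% of all genes). At an unadjusted p under 0.05, 14 were lower and 4 higher in rpS6 P-/-, beside 11.5% and 10.2% of all genes. Their median log2 difference was -0.20. Against lysate, 10 were higher and 2 lower in heavy fractions of wt Acb, beside 11.5% and 11.6% of all genes (edgeR, adjusted p under 0.05). In rpS6 P-/- Acb 8 were higher and 8 lower, beside 9.5% and 9.74%. In wt DS 10 were higher and 2 lower, beside 12.8% and 12%. In rpS6 P-/- DS 12 were higher and 2 lower, beside 13.4% and 12.1%. In the interaction of genotype and region 9 were lower and 1 higher at an unadjusted p under 0.05, beside 7.49% and 6.33% of all genes. Lower calls of this list against lysate were most numerous in rpS6 P-/- Acb, where the share of all genes lower was smallest. Counts of this list were not split by coding length.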

How the data were processed

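Poly(A) RNA of lysates and heavy polysomal fractions was sequenced as stranded, single-end libraries. The authors aligned reads to mm10 with TopHat2 2.0.13 and Bowtie2 2.2.3, discarded alignments with more than 3 mismatches, and deposited raw counts per gene made with HTSeq 0.6.1p1 in union mode. From these counts, genes with at least 15 reads summed over the libraries of a fit were tested with the quasi-likelihood F test of edgeR 4.0.16 (R 4.3.3, TMM scaling), and p-values were adjusted by Benjamini-Hochberg over all genes tested, with a cutoff of 0.05. Genotype was compared in 4 sets of 6 libraries, fraction in 4, region in wt libraries, and interactions over 12 libraries. The script was tested on simulated counts. Alternatives were DESeq2 1.42.0 (Wald test), no filter, a fit of all 24 libraries, a replicate block, removal of a loess trend on transcript length, and libraries left out. For fraction and translational efficiency, heavy and lysate libraries of the same genotype and number were left out together. In the other comparisons each library was left out alone. Genes and lists were chosen with earlier results of these data known. Named with per-library values were the 4 genes that the study names, up to 3 called genes with the largest non-overlapping difference in each direction per comparison, and otherwise the 3 with the smallest p. Other genes in the text were chosen after their values were seen. Gene lengths came from GENCODE and promoters from RefSeq (GRCm38.p6). The number of mice pooled per library differs between the sources used here. Lysate RNA was an aliquot taken before the gradient, and per the study's methods a heavy library combines fractions of several lysates. That heavy and lysate libraries of the same number hold the same lysates is not stated in the sources used here. The number was therefore not treated as a pairing in the main tests, and only the block and the joint leaving out used it. Depth of 9280589 to 34703044 reads limits the precision of genes under about 10 CPM most.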

Additional observations from a re-analysis of the deposited data

How the results depend on the processing

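Of the counts reported for the whole set, 177 of the values under an alternative were classed as unchanged and 47 as moved. Values of single named genes and medians of the whole set were counted jointly. Among them, 823 were unchanged, which for a gene means the same direction and side of the cutoff. Of the rest, 79 passed the cutoff only under the alternative, 25 no longer passed, 21 moved, and 1 changed sign. The sign changed for the translational efficiency of Timm8a1 in the Acb (-0.455 to 0.081 when libraries were left out, the latter without the wt libraries numbered 1). The number of called genes moved as follows, and the cause was not tested. The share of all genes called was not counted under these alternatives, nor above where libraries were left out. The exceptions are the DESeq2 shares given above for heavy fractions and for the interaction of genotype and region. Without such a share, a count describes the setting and gives no result about this set. In Acb heavy fractions (0 called) it was 16 by DESeq2, 23 in the fit of all 24 libraries, 13 with no filter and 0 to 0 when a library was left out, while the 33 genes lower at an unadjusted p under 0.05 became 19 with the length trend removed and 17 to 40 when a library was left out. In DS heavy fractions (0 called) it was 1 by DESeq2, 1 with the length trend removed, 2 with no filter and 0 to 2 when a library was left out. In DS lysates it was 1 by DESeq2 and 1 with no filter. In the interaction of genotype and region it was 5 by DESeq2, 11 in the fit of all libraries, 1 with the length trend removed, 11 with no filter and 0 to 10 when a library was left out. Between regions it was 6 in heavy fractions with the length trend removed and 0 to 2 when a library was left out, and in lysates 1 in the fit of all libraries, where Tomm20 was not called, and 1 to 2. For translational efficiency it was 5 in the Acb with no filter. When the libraries of 1 genotype and number were left out it was 0 to 1, with 7 to 26 genes lower at an unadjusted p under 0.05, and 0 to 2 in the DS. Against lysate, the 23 called genes of wt Acb became 15 to 19, the 31 of wt DS 17 to 30, and the 32 of rpS6 P-/- DS 21 with the length trend removed.

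With the replicate number as a block, called genes were 6 in Acb heavy fractions, 2 in DS heavy fractions, 1 in DS lysates, 6 in the interaction with region, and 4 in Acb translational efficiency. These 4 were Slirp (edgeR adjusted p = 0.00181), Chchd1 (0.014), Timm10 (0.0365) and Timm22 (0.047), all lower, beside 0.503% of all genes. With block and length trend together they were 20 for rpS6 P-/- DS against lysate, 2 for the interaction, 4 for heavy fractions between regions and 4 for Acb translational efficiency, and 19 genes were lower in Acb heavy fractions at an unadjusted p under 0.05. The block moved no other count of calls by over 1.5 times. Apart from the 0.503% above, shares over all genes were not counted with the block, so those counts give no result about this set. The number is not shown to be a pairing, as deviations of same-numbered libraries from their group means correlated at -0.0481 to 0.0931 between heavy and lysate, -0.362 to 0.377 between genotypes and -0.323 to 0.285 between regions.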
